A study of Mus musculus with 6 samples.

Results

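Subunit genes of voltage-gated calcium channels, 10 in all, were followed between tissue taken at neuromuscular junctions (NMJs) and tissue taken elsewhere on the same mouse muscle fibres. The list held Cacna1s, Cacna1c and Cacna1h (pore subunits), Cacna2d1, Cacna2d2 and Cacna2d3 (alpha2delta subunits), Cacnb1, Cacnb3 and Cacnb4 (beta subunits) and Cacng1 (a gamma subunit). A gene was taken from an array row annotated with exactly 1 symbol, and from the brightest such row where it had several. Of the 10 genes, 9 had such a row, each of them 1 row, among 23332 rows that carried 14860 distinct symbols. Cacnb3 was not analysed here.

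Both groups were the tibialis anterior, a fast leg muscle, of ICR mice, an outbred strain, aged 16 weeks. NMJ tissue was cut out by laser after a stain for acetylcholinesterase, matched areas of the same fibres without a junction were taken for comparison, and each region gave 3 exon arrays. No transgene or treatment is given for either group. The labels used here do not say how many animals were used or whether arrays of a region share animals, so the p-values measure the spread between these arrays and are too small where animals are shared. Captured tissue holds every cell type that lies in the cut area.

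A voltage-gated calcium channel is built around a pore subunit that senses membrane voltage. The beta subunit binds the pore protein inside the cell, the alpha2delta subunit sits on the outer face, and both raise the number of channels at the membrane. In skeletal muscle the channel of the transverse tubules consists of the products of Cacna1s, Cacna2d1, Cacnb1 and Cacng1, and it serves mainly as the voltage sensor that opens the ryanodine receptor of the calcium store. Cacna1c encodes the pore of the L-type channel of heart, smooth muscle and neurons, and Cacna1h that of a T-type channel, which opens at low voltage. Cacna2d2, Cacna2d3 and Cacnb4 are known best from neurons.

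Of 11 measured junction genes, 9 were higher in the arrays labelled NMJ and 0 lower. The exceptions were Rapsn, which anchors the receptor (difference -0.04), and Dok7, which activates Musk (-0.23, and lower at adjusted p = 0.0251 after quantile normalization and 0.0496 after median centring). Chrna1 and Chrne, subunits of the acetylcholine receptor, were 59.5-fold and 56.9-fold higher in NMJ regions, and Musk, the muscle receptor kinase for nerve agrin, was higher by 13.1-fold. The muscle genes Acta1, Ckm and Tnnt3 had mean log2 values of 12.52 to 13.41 in both regions. Correlations over all rows ran from 0.98 to 0.99 within a region and from 0.953 to 0.961 between regions.

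The 4 genes of the muscle channel were all lower in NMJ regions, and Cacna2d3 was the only member that was higher. Cacng1 fell by 1.39 on the log2 scale, Cacna1s by 0.88, Cacnb1 by 0.76 and Cacna2d1 by 0.56, while Cacna2d3 was 6.76-fold higher. Cacna2d2, a dim row, fell by 0.31. Cacna1c, Cacna1h and Cacnb4 had differences of -0.16, -0.09 and -0.13 that did not pass the test. Calls rest on limma, fitted to the whole array, at a Benjamini-Hochberg adjusted p under 0.05.

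Thus 1 of 9 members was called higher and 5 were called lower, the latter count falling to 3 without non-NMJ replicate 1, NMJ replicate 1 or NMJ replicate 3. Over all 23332 rows, 14.4% were called higher and 8.63% lower. The 3 NMJ arrays lay wholly above or wholly below the 3 non-NMJ arrays for 7 of 9 members, against 41.0% of all rows. The median difference of the 9 members was -0.31, and that of all rows was -0.01. In all rows 62.5% of the calls were higher in NMJ regions, but quantile normalization gave 46.6% and a median difference of -0.06, and centring each array on its median gave 41.7% and -0.15. No called member changed direction under either scaling, and 6 members were called lower under each. In such tissue, fewer cells of a type and less RNA per cell cannot be told apart.

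**Figure D1:**
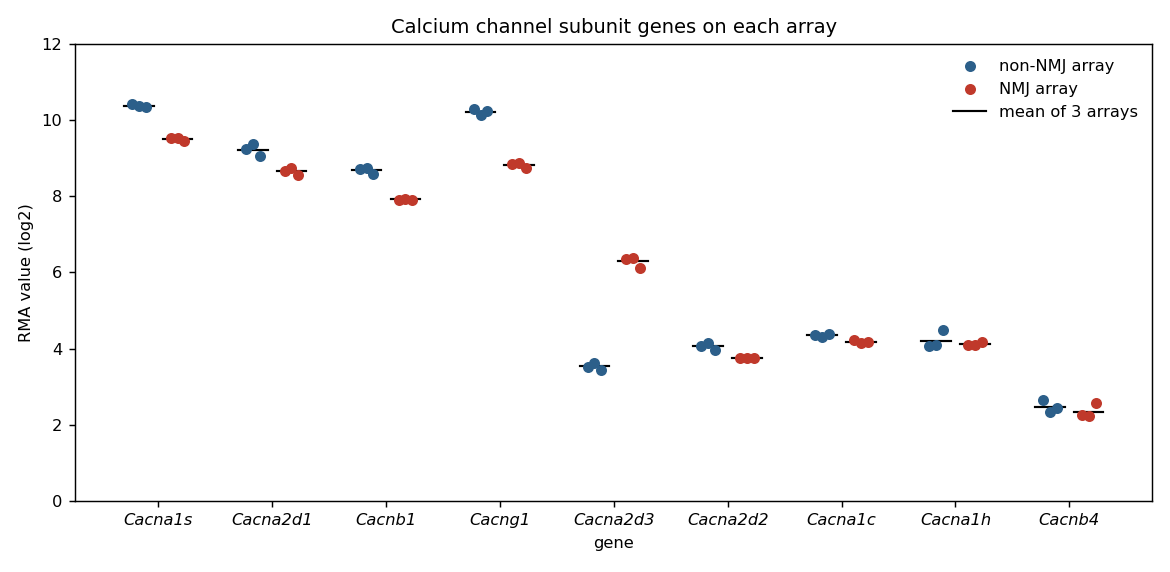
RMA value (log2, vertical axis) of each of the 9 measured genes on each array. Points are single arrays, blue for non-NMJ and red for NMJ, and black lines are means of 3 arrays. The muscle channel genes Cacna1s, Cacna2d1, Cacnb1 and Cacng1 are lower on all 3 NMJ arrays, and Cacna2d3 is higher, with NMJ values of 6.12 to 6.39 over non-NMJ values of 3.44 to 3.63.

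Start regions of the muscle channel genes and of Cacna2d3 are shown because the former fell together while Cacna2d3 moved the other way. RefSeq start regions of build GRCm38.p6 were found for 8 of the 10 listed genes (14 starts); Cacng1 and Cacna1h were not among them, and that of Cacna2d2, which held no E-box, is not printed. The 250 bases before each start are given 5′ to 3′, with E-boxes (CANNTG, read the same on both strands), the element bound by the myogenic factors, in capitals. They lie at chr1:136052561-136052810, plus strand (Cacna1s), chr5:15934441-15934690, plus strand (Cacna2d1), chr11:98022628-98022877, minus strand and chr11:98018373-98018622, minus strand (the upstream and downstream starts of Cacnb1) and chr14:29721865-29722114, minus strand (Cacna2d3).
Cacna1s: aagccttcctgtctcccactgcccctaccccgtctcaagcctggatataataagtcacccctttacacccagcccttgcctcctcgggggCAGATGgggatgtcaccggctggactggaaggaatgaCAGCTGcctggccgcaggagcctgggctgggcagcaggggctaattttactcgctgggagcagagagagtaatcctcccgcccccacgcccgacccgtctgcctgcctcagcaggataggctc
Cacna2d1: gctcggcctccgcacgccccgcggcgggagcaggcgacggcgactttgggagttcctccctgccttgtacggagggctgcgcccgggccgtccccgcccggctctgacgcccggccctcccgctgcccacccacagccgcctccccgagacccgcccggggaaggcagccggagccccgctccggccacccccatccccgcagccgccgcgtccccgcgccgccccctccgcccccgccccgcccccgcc
Cacnb1, upstream start: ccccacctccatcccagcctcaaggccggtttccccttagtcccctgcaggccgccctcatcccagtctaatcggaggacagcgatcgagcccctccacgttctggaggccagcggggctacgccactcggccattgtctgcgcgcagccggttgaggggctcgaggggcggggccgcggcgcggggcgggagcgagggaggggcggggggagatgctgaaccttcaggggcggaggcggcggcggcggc
Cacnb1, downstream start: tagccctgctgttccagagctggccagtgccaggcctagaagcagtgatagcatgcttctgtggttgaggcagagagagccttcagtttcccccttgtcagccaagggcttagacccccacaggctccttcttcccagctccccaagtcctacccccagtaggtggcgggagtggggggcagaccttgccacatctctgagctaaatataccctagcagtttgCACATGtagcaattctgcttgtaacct
Cacna2d3: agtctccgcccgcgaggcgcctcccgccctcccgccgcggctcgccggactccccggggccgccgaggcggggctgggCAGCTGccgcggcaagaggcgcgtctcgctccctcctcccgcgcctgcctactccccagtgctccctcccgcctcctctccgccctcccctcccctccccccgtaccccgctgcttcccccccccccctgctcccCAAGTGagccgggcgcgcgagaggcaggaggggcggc

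An E-box stood in 8 of the 14 windows of listed genes, among them those of Cacna1s, Cacna2d3, the downstream start of Cacnb1 and all 3 starts of Cacna1c, which was not called, and in 66.2% of 32851 RefSeq start regions of the same length. The form CAGCTG, which is among the forms counted as CANNTG, occurred 123 bases before the start of Cacna1s, 172 bases before that of Cacna2d3 and 32 bases before the third start of Cacnb4, and in 4271 of the 32851 start regions. Thus a gene that fell, the gene that rose and a gene with no call held it. The N-box CCGGAA, searched on both strands and known as the element that ETS factors bind in synaptic genes, occurred in 0 of the 14 windows of listed genes and in 3952 of the 32851 start regions. Among 10 windows of 8 junction genes it occurred in 1, that of Chrne. A match describes the letters of a window and does not show a binding site.

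Cacna1s encodes the pore and voltage sensor of the muscle channel. Its values were 10.42, 10.38 and 10.34 on the non-NMJ arrays and 9.52, 9.53 and 9.46 on the NMJ arrays. The regions did not overlap, and the gap between their nearest arrays was 0.81. The mean fell from 10.38 ± 0.04 to 9.50 ± 0.04 (SD, n = 3), so that the NMJ level was 54.4% of the other. The difference was -0.88 ± 0.08 (SE), with a 95% interval of -1.07 to -0.69 and a limma adjusted p of 0.000754.

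Cacng1 encodes the gamma subunit of skeletal muscle, whose loss in mice raises the calcium current of the fibre. It stood at 10.28, 10.13 and 10.24 on the non-NMJ arrays and at 8.86, 8.87 and 8.74 on the NMJ arrays. This was the widest gap among the 5 members that fell, 1.25 between the nearest arrays of the regions. The NMJ level was 38.2% of the other, a difference of -1.39 ± 0.09 (SE), with an interval of -1.60 to -1.17 and a limma adjusted p of 0.000227. Only 0.63% of all rows had a lower difference.

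Cacnb1 encodes the beta subunit that brings the muscle channel to the junctions between tubule and calcium store. Its non-NMJ values were 8.71, 8.73 and 8.59, and its NMJ values 7.90, 7.94 and 7.91. The regions were separate, with a gap of 0.65 between their nearest arrays. The level was 1.69-fold lower in NMJ regions (difference -0.76 ± 0.08, SE, limma adjusted p = 0.00159).

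Cacna2d1 encodes the main alpha2delta subunit of muscle, also a binding protein of gabapentin. It had values of 9.25, 9.37 and 9.05 on the non-NMJ arrays and 8.66, 8.75 and 8.56 on the NMJ arrays. The regions did not overlap, but at 0.30 the gap was the narrowest of the 4 muscle channel genes, with non-NMJ replicate 3 nearest to the NMJ arrays. It was 1.48-fold lower (difference -0.56 ± 0.11, SE, limma adjusted p = 0.0167). The call was lost without non-NMJ replicate 1 (adjusted p = 0.0514), NMJ replicate 1 (0.0627) or NMJ replicate 3 (0.0584), with differences between -0.57 and -0.51. The intervals of Cacng1 and Cacna1s do not meet, nor do those of Cacng1 and Cacnb1, whereas those of Cacna1s, Cacnb1 and Cacna2d1 do. The differences between these genes were not tested.

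Cacna2d3 encodes an alpha2delta subunit known mainly from the nervous system; in Drosophila its counterpart is needed for calcium channels at the motor nerve terminal. Its values were 3.52, 3.63 and 3.44 on the non-NMJ arrays and 6.35, 6.39 and 6.12 on the NMJ arrays. The lowest NMJ array was 2.48 above the highest non-NMJ array. The difference was 2.76 ± 0.11 (SE), with an interval of 2.49 to 3.03 and a limma adjusted p of 4.39e-05, and 0.639% of all rows had a larger difference. The non-NMJ mean of 3.53 lay 0.84 below the array median. No detection calls were at hand, so the fold is only that of the RMA values.

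In the RefSeq table the protein-coding gene Lrtm1 lies within the span of Cacna2d3, with its start on the opposite strand. Lrtm1 encodes a membrane protein with leucine-rich repeats. Its own row was 12.3-fold higher in NMJ regions, with values of 8.30, 7.99 and 7.90 on the non-NMJ arrays and 11.66, 11.75 and 11.63 on the NMJ arrays (difference 3.62 ± 0.13, SE, limma adjusted p = 2.75e-05). The nested gene thus moved the same way as its host, and by more. Whether probes of the Cacna2d3 row also read Lrtm1 RNA cannot be told from gene-level values and was not tested. Lrtm1 was picked for this overlap. Wnt5a, the neighbouring gene on the other side and a secreted signal, was also higher (difference 1.85, limma adjusted p = 0.000127). RefSeq also places Rpl19 over part of Cacnb1, Dcp1b over part of Cacna1c and Tpsg1 over part of Cacna1h, and of these Tpsg1 was measured (difference 0.15, adjusted p = 0.494).

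**Figure D2:**
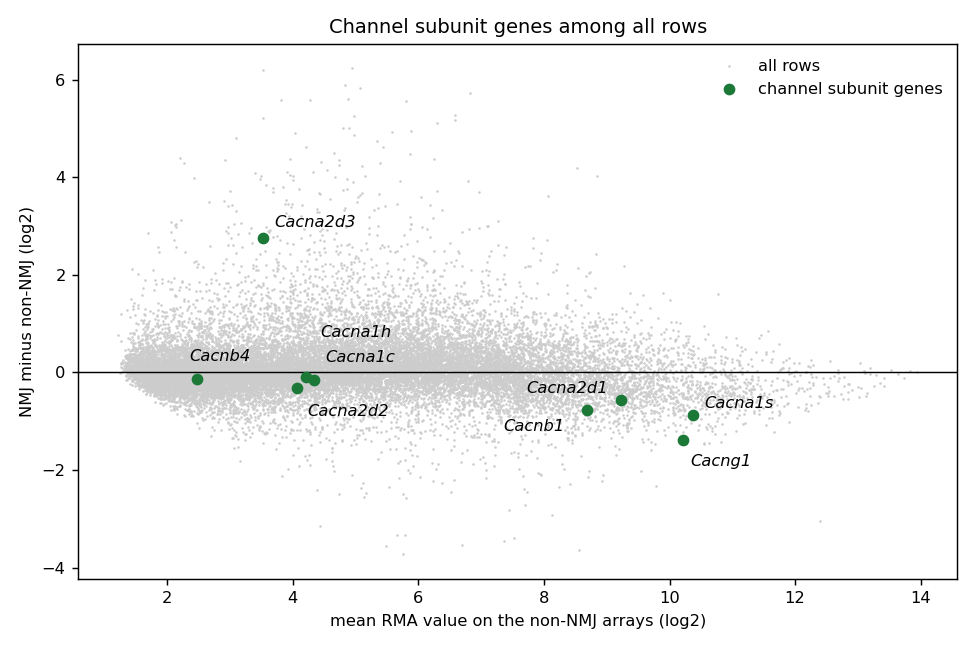
Mean RMA value on the non-NMJ arrays (log2, horizontal axis) against the NMJ minus non-NMJ difference (log2, vertical axis) for all 23332 rows (grey) and the 9 measured genes (green). The muscle channel genes lie below 0, with Cacng1 at -1.39, and Cacna2d3 lies at 2.76 over a non-NMJ mean of 3.53.

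The other pore genes were dim in both regions. Cacna1c had values of 4.35, 4.30 and 4.38 on the non-NMJ arrays and 4.23, 4.14 and 4.17 on the NMJ arrays. These do not overlap, but the gap was 0.07 and the adjusted p 0.205 in limma (interval -0.35 to 0.03). It passed after quantile normalization (difference -0.27, adjusted p = 0.0379) and median centring (-0.30, 0.0354). Cacna1h had values of 4.06, 4.09 and 4.48 on the non-NMJ arrays and 4.10, 4.08 and 4.17 on the NMJ arrays. The regions overlapped, the interval ran from -0.42 to 0.23, and without non-NMJ replicate 3 the difference was 0.04. For both genes the interval leaves out an RMA difference as large as that of Cacna1s. Their level over background is unknown, so a change of that size in RNA is not excluded. Their means lay below the array medians in both regions.

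Cacna2d2, an alpha2delta gene known from cerebellar neurons, stood at 4.07, 4.14 and 3.97 on the non-NMJ arrays and at 3.75, 3.76 and 3.74 on the NMJ arrays. All NMJ values were lower, with a gap of 0.21. The limma adjusted p was 0.0417, and the call was lost without non-NMJ replicate 1 or 2 (0.0988 and 0.105), without NMJ replicate 1, 2 or 3 (0.136, 0.118 and 0.111) and with an intensity trend and a robust prior set together for the variance (0.0672). Cacnb4, a beta subunit gene of neurons, lay below the array medians in both regions. Its values of 2.65, 2.32 and 2.43 on the non-NMJ arrays and 2.25, 2.22 and 2.56 on the NMJ arrays overlapped (interval -0.46 to 0.21).

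Among the 3 alpha2delta genes, Cacna2d1 and Cacna2d2 were lower and Cacna2d3 was higher in NMJ regions. Summed over the 4 muscle channel genes, the linear RMA level was 1750 to 1880 on the NMJ arrays and 3420 to 3640 on the non-NMJ arrays. Cacna1s, Cacnb1, Cacng1 and Cacna2d3 kept their calls in all 15 alternatives run for them, the omission of each array included.

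**Figure D3:**
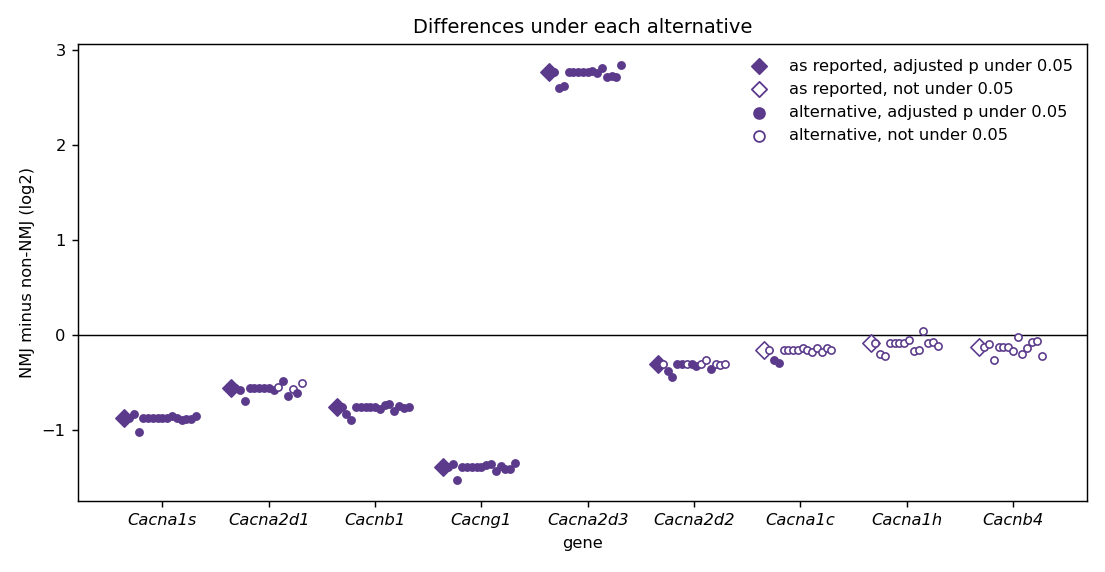
NMJ minus non-NMJ difference (log2, vertical axis) of each measured gene as reported (diamonds) and under each alternative that kept its row (circles). Filled marks have an adjusted p under 0.05. Cacng1 lies between -1.53 and -1.35 and Cacna2d3 between 2.60 and 2.84, while many marks of Cacna2d2 are open.

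The remaining channel subunit genes showed no call. Of 16 listed, 10 had a row, 0 were called higher and 0 lower by limma, and 1, Cacng4, had an unadjusted p under 0.05. Their median difference was -0.09, and the means of 8 lay below the array medians in both regions. Cacna1a, the pore gene of the channel that triggers release at motor nerve terminals, had a difference of -0.11 with an interval of -0.32 to 0.09. Cacnb2, the beta subunit gene of heart, had one of 0.14 (interval -0.08 to 0.36).

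Cacng4 is the next protein-coding gene after Cacng1 on the chromosome, and Cacng5 follows it. They belong to the gamma genes known for receptors of glutamate in brain. Cacng4 had a difference of -0.50 ± 0.15 (SE, limma adjusted p = 0.0678) and Cacng5 of 0.33 ± 0.15 (SE, adjusted p = 0.19). Cacng4 passed under 5 alternatives, among them quantile normalization (adjusted p = 0.0359) and median centring (0.0316). The 3 neighbours thus had differences of -1.39, -0.50 and 0.33, of which the first passed the test as reported.

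Proteins that bind or resemble channel subunits moved both ways. Of 13 listed regulators, 11 had a row, 3 were called higher and 2 lower, with a median difference of -0.14. Cachd1 encodes a membrane protein related to the alpha2delta subunits. Its values were 4.83, 4.49 and 4.79 on the non-NMJ arrays and 7.35, 7.29 and 7.23 on the NMJ arrays. It was 5.99-fold higher (difference 2.58 ± 0.12, SE, limma adjusted p = 6.82e-05), next to 6.76-fold for Cacna2d3. Rrad, a small GTPase that inhibits L-type channels through the beta subunit, was 1.63-fold higher, as was Tmem37, a relative of the gamma subunits. Tspan13, a tetraspanin, fell by 0.92, and Ahnak, a scaffold that binds beta subunits, fell by 1.00. Stac3, the adaptor that the muscle channel needs for coupling, had a difference of -0.06, with an interval of -0.25 to 0.14 that leaves out the change of any of the 4 muscle channel genes. Tmem37 was not called without NMJ replicate 1 or 2 (adjusted p = 0.0507 and 0.0589). Ahnak was not called without non-NMJ replicate 1 or 2 (0.0521 and 0.0516), without NMJ replicate 2 or 3 (0.0645 and 0.0622) or without variance moderation (0.0799). With those arrays left out in turn, 1 regulator was lower.

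**Figure D4:**
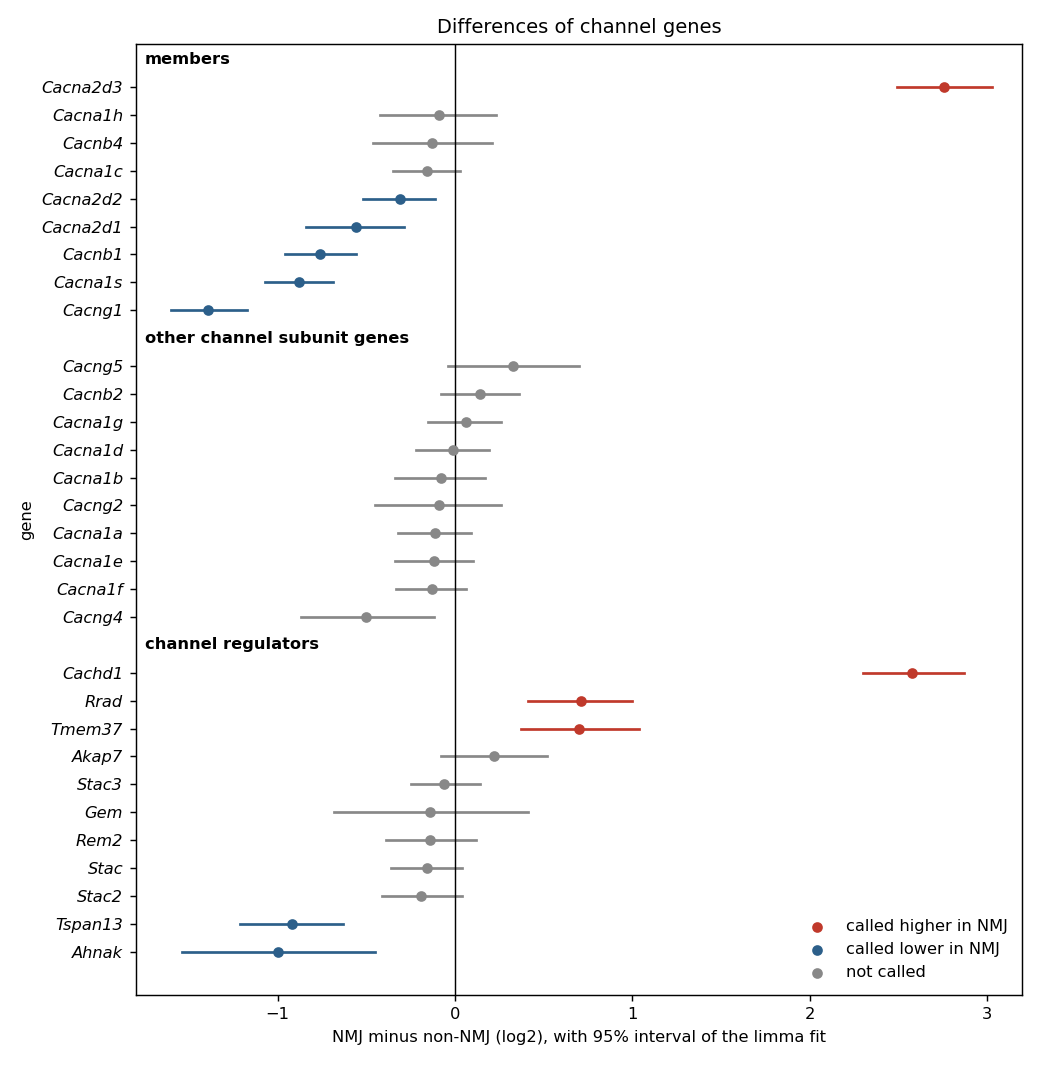
NMJ minus non-NMJ differences (log2, horizontal axis) with the 95% intervals of the limma fit, for the 9 measured members, the 10 other channel subunit genes and 11 channel regulators. Red genes were called higher in NMJ regions, blue genes lower and grey genes not. Cacna2d3 (2.76) and Cachd1 (2.58) stand apart on the right, and the 10 other subunit genes are grey.

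Genes of the triad, where the muscle channel meets the calcium store, were called lower more often than higher. Of 18 listed, 17 had a row, 7 were lower, 2 higher and 8 not called, and the median difference was -0.32. Tmem38b, a cation channel gene of the store, fell by 1.15, and Jph1, the junctophilin that ties tubule to store, by 0.70. Trdn, the anchor protein triadin, and Jsrp1, which binds both the channel and the store protein calsequestrin, each fell by 0.53. Atp2a1, the fast calcium pump gene, fell by 0.37. The 2 that rose were Bin1, which shapes the tubules (difference 0.42, adjusted p = 0.0121, not called without NMJ replicate 1 or 2), and Asph, the locus of the store protein junctin (0.32, adjusted p = 0.0307, but 0.703 after quantile normalization, 0.126 after median centring and 0.0695 to 0.124 in 5 of the 6 fits that left out 1 array). Ryr1, the release channel that Cacna1s opens, had a difference of -0.22 ± 0.08 (SE, limma adjusted p = 0.0957), and Casq1, calsequestrin, had one of -0.32 (adjusted p = 0.0512). Both passed after median centring (0.0164 and 0.0115) and without the dimmest 50% of rows (0.0408 and 0.02). They also passed with an intensity trend and robust prior (0.0136 and 0.0103) and without variance moderation (0.013 and 0.0445). Casq1 passed in further settings, and neither gene did after quantile normalization or with the replicate block. After median centring 12 triad genes were lower. The count of lower genes was 3, 4 and 4 without NMJ replicate 1, 2 or 3, and that of higher genes was 0, 0 and 1, or 1 without non-NMJ replicate 1 or 2. Trdn was not called without NMJ replicate 1 or 3 (0.0661 and 0.0541), and Atp2a1 not without NMJ replicate 1, 2 or 3 (0.0713, 0.0538 and 0.0531) or after quantile normalization (0.0771).

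Kinases, phosphatases and factors that read calcium moved in both directions: of 14 measured genes of 17 listed, 5 were higher and 4 lower (median difference 0.11). Camkk2, a kinase that activates other calmodulin-dependent kinases, was 4.89-fold higher, and Nfatc2, a factor that calcineurin activates, was 1.66-fold higher. Ppp3cc, a catalytic subunit of calcineurin, fell by 0.82 and the kinase gene Camk2b by 0.71. Without NMJ replicate 1 or 2 the higher genes numbered 3, and without NMJ replicate 1 the lower genes numbered 2. Ppp3cc was not called without non-NMJ replicate 1 or 2 (adjusted p = 0.0594 and 0.0598), without NMJ replicate 1 or 3 (0.0683 and 0.0554) or without variance moderation (0.0634).

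Fibre markers were lower or not called, and markers of other cells in the captured tissue moved in both directions. Of 7 measured fibre markers of 12 listed, 4 were lower and 0 higher, with differences from -0.70 (Actn3) to -0.02 (Mb) and a median of -0.27. Their summed linear level was 41000 to 41500 on the NMJ arrays and 49200 to 50500 on the non-NMJ arrays. Ckm fell by 0.50 and was called, with Actn3, in each fit that left out 1 array, whereas Acta1 and Tnnt3 were called in none of these 6 fits. The differences of Cacng1, Cacna1s and Cacnb1 were below that of every measured fibre marker, and that of Cacna2d1 was below 6 of the 7. Of their intervals, that of Cacng1 met none of the fibre markers. Those of Cacna1s (-1.07 to -0.69) and Cacnb1 (-0.96 to -0.56) met that of Actn3 (-0.88 to -0.52). That of Cacnb1 also met that of Ckm (-0.68 to -0.32). That of Cacna2d1 (-0.84 to -0.29) met those of all measured fibre markers except Mb (-0.2 to 0.16). The differences between channel genes and fibre markers were not tested. Whether the share of fibre RNA sets the fall of the channel genes was not tested.

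Schwann cell markers (7 of 8 measured higher, 0 lower, median 2.24) and fibroblast markers (7 of 10 higher, 0 lower, median 1.16) rose in the same arrays as Cacna2d3 and Cachd1. The Schwann cell count was 6 in each fit that left out 1 array and after either scaling, Ngfr losing its call. The fibroblast count was 6 without NMJ replicate 1. Gjc3, a connexin of Schwann cells, was 16.4-fold higher and Pdgfra, a fibroblast receptor, 5.39-fold higher. The summed level of the Schwann cell list was 2020 to 2120 on the NMJ arrays and 288 to 331 on the non-NMJ arrays, and that of the fibroblast list was 9470 to 9880 and 3230 to 3490. Of 12 motor axon markers 0 were higher and 2, Uchl1 and Isl1, were lower (0 lower without NMJ replicate 1 or 2, and 1 without NMJ replicate 3). The means of 11 lay below the array medians in both regions, and the summed level was 117 to 125 on the NMJ arrays and 142 to 146 on the non-NMJ arrays. Their level over background is unknown, so the axon list does not tell how much axon was captured. The junction genes rose in these arrays as well (9 of 11 measured higher, 0 lower, median 3.71). The part of the fibre at the junction, of Schwann cells, of fibroblasts and of axons in the rise of Cacna2d3 was not tested.

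Smooth muscle and pericyte markers, of cells known to use Cacna1c and Cacna1h, were lower in 7 of 12 cases, and 2 (Cspg4 and Smtn) rose, with a median of -0.54. Lmod1, a smooth muscle actin regulator, fell by 1.19. The count of lower markers was 5 without NMJ replicate 1, 2 or 3 or non-NMJ replicate 2, and 6 without non-NMJ replicate 3. The summed level was 1810 to 1920 on the NMJ arrays and 2640 to 2920 on the non-NMJ arrays. Of 10 endothelial markers 6 were lower and 0 higher, but 2 were lower without NMJ replicate 1, 2 or 3 or non-NMJ replicate 2, and 3 without non-NMJ replicate 1. After quantile normalization 9 endothelial and 8 smooth muscle and pericyte markers were lower, and after median centring 7 of each list. The part of vessel cells in the differences of Cacna1c and Cacna1h was not tested. Of 9 macrophage markers 3 (Mrc1, C1qc and Cd163) were higher and 1 (Cd68) lower, and of 10 satellite cell markers 2 (Sdc4 and Megf10) were higher and 1 (Myod1) lower. The macrophage count of higher markers was 1 without NMJ replicate 1 or 2 or non-NMJ replicate 3, and 2 without non-NMJ replicate 1 or 2, and that of lower markers was 0 with any 1 array left out.

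**Figure D5:**
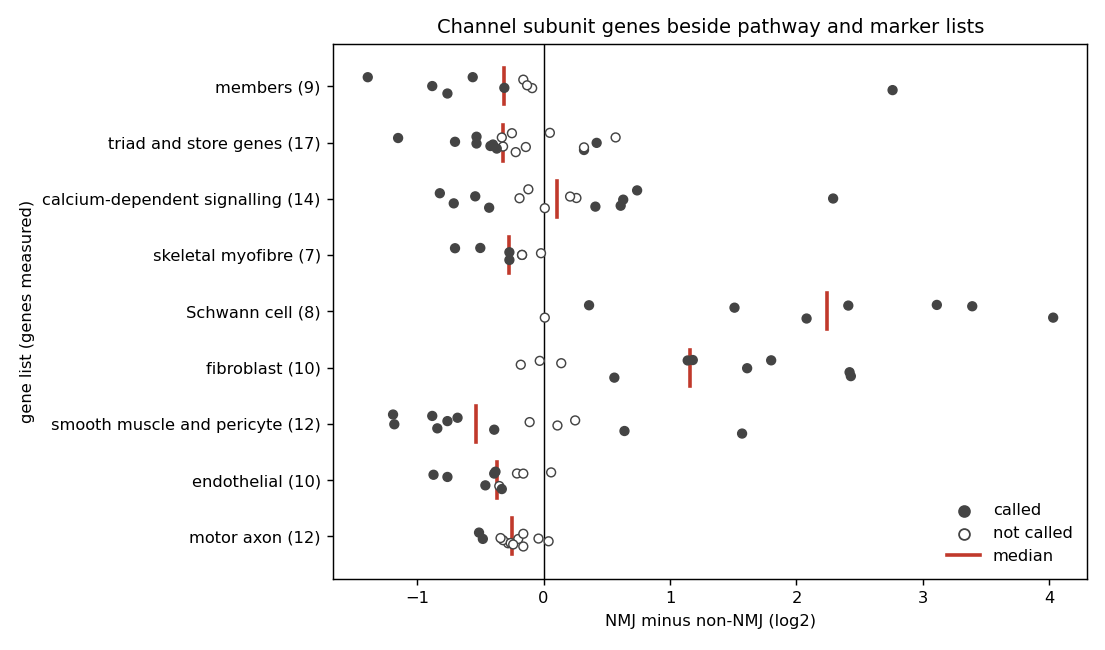
NMJ minus non-NMJ differences (log2, horizontal axis) of the 9 measured members beside pathway and marker lists, with the number of measured genes in brackets. Each circle is a gene, filled where it was called, and red bars are medians. Medians are -0.31 for the members, -0.32 for triad genes and -0.27 for fibre markers, and the Schwann cell (2.24) and fibroblast (1.16) medians lie to the right.

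The patterns most like those of the outermost members were sought by Pearson correlation over the 6 arrays among 14859 other genes. Since the arrays form 2 separate regions, high values are common, and they describe likeness only: 662 genes had a correlation with Cacna2d3 above 0.99. The nearest to Cacna2d3 were Fndc3b (0.9999), Adam23 (0.9998), a neural membrane protein gene, and Tnfrsf1a (0.9998), a receptor of tumour necrosis factor. Their differences were 1.37, 3.96 and 1.67. For Cacng1, 200 genes exceeded 0.99. The nearest were Smad3 (0.9998), a transducer of TGF-beta signals, Atp1b2 (0.9995), a subunit of the sodium pump, and Ckm (0.9992), the muscle creatine kinase, with differences of -1.52, -1.08 and -0.50.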

How the data were processed

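RNA of captured NMJ and non-NMJ tissue was hybridised to Affymetrix mouse exon arrays, 3 per region, from 10 ng of RNA per sample, per the labels' protocols. The deposited values are gene-level log2 values that the authors made with RMA, per the submitters' processing notes, which also name Affymetrix Expression Console and Transcriptome Analysis Console. Tool versions and genome build: not given in the sources used here. That the unit is log2 follows from the range of the values, and no detection calls were used. Arrays have no read depth; their number limits the precision, and array medians were 4.37 to 4.53.

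Of 23332 rows, 14996 carried 1 gene symbol, 1019 several, and 7317 were unnamed here. Differences (NMJ minus non-NMJ) were fitted with limma 3.58.1 in R 4.3.3 (lmFit, eBayes, no block, two-sided) over all rows and adjusted over all rows. Members and gene lists were chosen with earlier results of these data known. Named were all members, from each list up to 4 called genes of largest difference, 8 genes whatever their values (Ryr1, Stac3, Jph1, Casq1, Atp2a1, Chrna1, Chrne, Musk) and the 3 genes most like the highest and the lowest member; all other genes named were picked after their values were seen. The fit was tested on simulated data. Alternatives were the replicate block, other scalings, filters, variance models, array weights, thresholds and the omission of each array. The RefSeq table of GRCm38.p6 served for gene order and start regions, and not to place array rows, since no build is named for the array values.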

Additional observations from a re-analysis of the deposited data

How the results depend on the processing

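The count of members called higher stayed at 1 in every alternative. That of members called lower was 5 as reported, 3 at an adjusted p under 0.01, 1 with a difference of at least 1 also required, and 3 to 5 without single arrays. Of the other subunit genes, 1 (Cacng4) was lower after quantile normalization, after median centring, without the dimmest 25% or 50% of rows, and among rows with 1 symbol. The coupling, store and regulator genes gave 10 higher and 13 lower calls. These became 5 and 6 at an adjusted p under 0.01, 2 and 1 with a difference of at least 1, 20 lower after median centring, and 5 to 10 higher and 7 to 14 lower without single arrays. The difference of Cacna1h ran from -0.17 to 0.04 without single arrays and was above 0 only without non-NMJ replicate 3; the cause was not tested. Centring lowers every difference, which adds to lower counts by construction.

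Same-numbered arrays had correlations of 0.0468, 0.0355 and 0.184 between their deviations from the region means. Those of arrays with unlike numbers ran from -0.15 to 0.111, the highest between NMJ replicate 2 and non-NMJ replicate 1. NMJ replicates 1 and 3 correlated best with their own number. Whether the numbers mark pairs cannot be told from these values. The labels do not say that a number marks an animal, so the main fit took no pairs. With the replicate block, 4 members were lower, Cacna2d2 having an adjusted p of 0.0687 at a difference of -0.31, and 2 fibre markers in place of 4. Of the coupling, store and regulator genes, 11 were then lower, Ahnak (0.0802) and Fkbp1a (0.0929) losing their calls, and 10 higher, with Asph (0.0672) lost and Ryr3 (0.0381) gained. Each member had 1 row, so the mean over several rows could not be run. Dim rows limit what can be said of Cacna1c, Cacna1h, Cacna2d2 and Cacnb4: their level over background is unknown.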
